A study of Homo sapiens with 7 samples.

Results

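The VEGFA locus was followed in lists of 5-hydroxymethylcytosine (5-hmC) peaks from SK-N-BE(2) cells kept in low oxygen. It was taken as the 0.3 Mb window of chromosome 6 from 43.65 to 43.95 Mb (hg19), with the VEGFA body at 43.738 to 43.755 Mb on the plus strand. A peak was a member when its midpoint lay in the window, and member peaks that overlapped between lists were joined into 124 regions, of 415474 in the genome. The window was selected on the peak positions of these same lists, because a wide region at the end of the gene was absent at 0 h and present at every hypoxic time. Counts and levels at the locus are therefore descriptions, and no test was made on them.

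The cells, SK-N-BE(2), are an established human neuroblastoma line with the genotype label WT. The groups were cells in 1% oxygen (hypoxia) for 6, 12, 24, 48 or 72 h and cells in 21% oxygen (normoxia, 0 h), each with 1 captured library and 1 peak list. An input library at 21% oxygen was not analysed here. With 1 library per time no value has a replicate error, every difference is one between 2 libraries, and low oxygen cannot be told apart from time in culture.

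VEGFA encodes vascular endothelial growth factor A, a secreted protein that binds the receptors FLT1 and KDR on endothelial cells and drives the growth of blood vessels. Its transcription is activated in low oxygen by the hypoxia-inducible factors, which makes it a textbook hypoxia gene. 5-hmC is made from 5-methylcytosine by the TET enzymes, dioxygenases that need oxygen, and in many tissues it is found in the bodies of transcribed genes and at enhancers, and is sparse at CpG-rich start sites. The lists mark where 5-hmC was enriched, not how much of it there was. The study asked how the distribution of 5-hmC changes in hypoxia in cells with amplified MYCN, and the locus takes up this question for 1 gene. Expression of VEGFA was not measured in the files used here.

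The 6 lists held 285292 to 352484 peaks and covered from 147 Mb (0 h) to 192 Mb (72 h). A list with more total cover can be expected to cover more at a given place, though not at every place. Values at the locus are therefore set beside the genome-wide ratio of covered length to that at 0 h. This ratio was 1.071, 1.051, 1.126, 1.219 and 1.309 at the 5 hypoxic times in order. How deeply each library was sequenced is not known from the lists, which carry no heights or read counts.

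The VEGFA body filled with 5-hmC peaks over time in hypoxia, while the sequence around it followed the total cover of the lists. Peaks covered 3500 bp of the 17 kb body at 0 h, 5192 bp at 6 h, 6808 bp at 12 h, 9362 bp at 24 h, 12641 bp at 48 h and 11408 bp at 72 h. In share of the body, the series ran 20.6% (0 h), 30.5% (6 h), 40.0% (12 h), 55.1% (24 h), 74.4% (48 h) and 67.1% (72 h). Each hypoxic list covered more of the gene than the normoxia list, and the 48 h list covered most.

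Relative to 0 h, covered length in the body was 1.48 times at 6 h, 1.95 times at 12 h, 2.67 times at 24 h, 3.61 times at 48 h and 3.26 times at 72 h. Divided by the genome-wide ratio, these values were 1.38, 1.85, 2.38, 2.96 and 2.49 in the same order. The flanks of the window, which begin 2 kb outside the body, behaved otherwise. Their covered length was 1.09, 1.08, 1.11, 1.28 and 1.29 times that at 0 h from 6 to 72 h, and between 0.98 and 1.05 times after division by the genome-wide ratio.

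**Figure D1:**
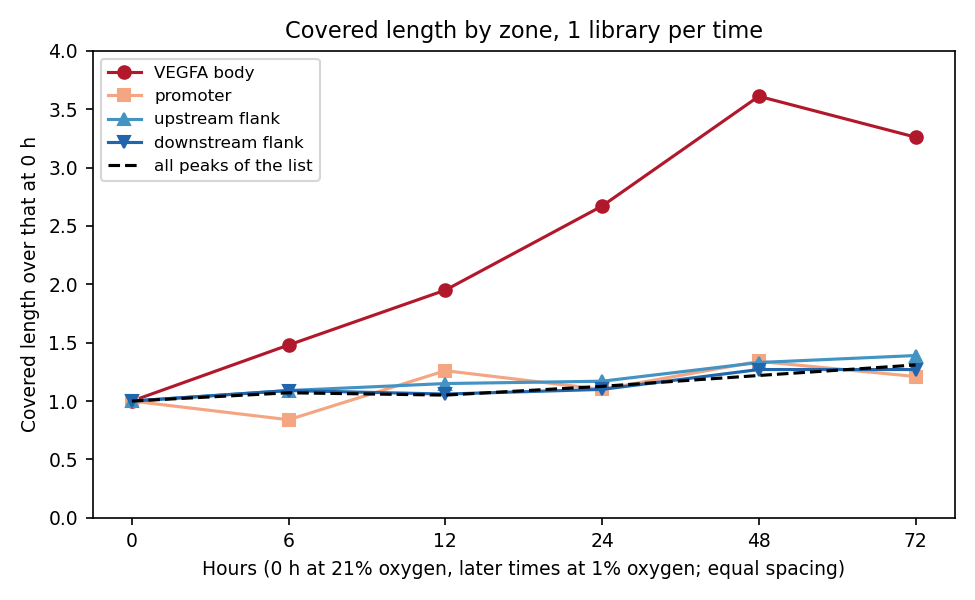
Covered length over that at 0 h (vertical axis) against hours (horizontal axis, equally spaced) for the VEGFA body, the promoter, both flanks and all peaks of the list (dashed); each point is 1 library. The body reaches 3.61 at 48 h, while the flanks stay at or below 1.39 and close to the dashed line.

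Seen over the whole window, a large share of the added cover lay in the gene. The body makes up 5.67% of the window, and its part of the added cover was 23.6% (6 h), 37.9% (12 h), 43.1% (24 h), 33.7% (48 h) and 29.9% (72 h). For the window as a whole, covered length was 90437 bp at 72 h, against 64002 bp at 0 h, a ratio of 1.41. The window held 100 peaks (0 h), 104 (6 h), 112 (12 h), 113 (24 h), 117 (48 h) and 115 (72 h).

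**Figure D2:**
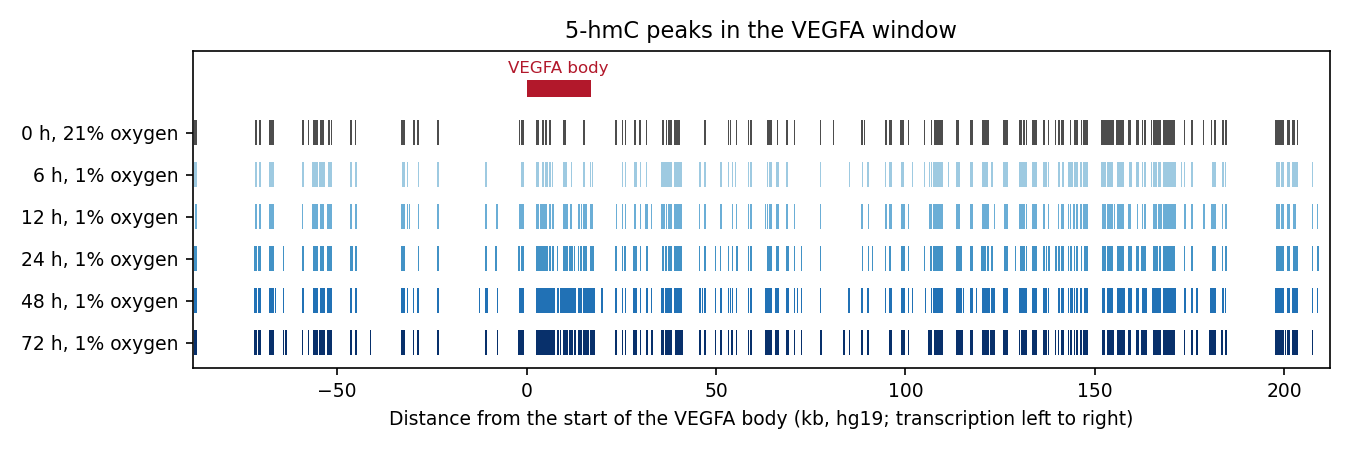
Peaks of each list (1 row per library, boxes to scale) along the 0.3 Mb window, against distance from the start of the VEGFA body in kb; the gene body is drawn in red. The rows look alike over most of the flanks. Over the gene the separate boxes of 0 h give way to wider ones, which cover 74.4% of the body at 48 h and 67.1% at 72 h.

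To place the gene among others, the genome was tiled in 17 kb windows that start at the body's edge. Of 183884 windows, the VEGFA body had the largest gain at 72 h, with 7908 bp more than at 0 h, and the next had 6740 bp. Covered length was at least 2 times that at 0 h in 3.29% of the 44851 windows with at least 1000 bp at 0 h. The median ratio of these windows at 72 h was 1.19, and the 95th percentile 1.89. Among the 3653 windows whose cover at 0 h lay within 10% of that of the VEGFA body, 11 reached a ratio of 2, and the VEGFA body alone was at or above its own ratio of 3.26. Over all 44851 windows, however, 19 were at or above that ratio, the VEGFA body among them.

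This tiling fits the gene exactly and other places by accident. When windows of 17 kb were slid in steps of 1 kb, a choice made after seeing the data, 1 other place gained at least as much at 72 h. It lay on chromosome 10 from 133778001 to 133795000, with 12849 bp at 72 h, against 4339 bp at 0 h. At 24 and 48 h there was likewise 1 other place, and at 12 h there were 0. At 6 h, however, 609 other places gained at least the 1692 bp that the VEGFA body gained. In the tiling, 198 of the 44851 windows with at least 1000 bp at 0 h (0.441%) gained that much by 6 h. A gain of that size by 6 h was thus seen in many places, though in a small share of the windows.

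**Figure D3:**
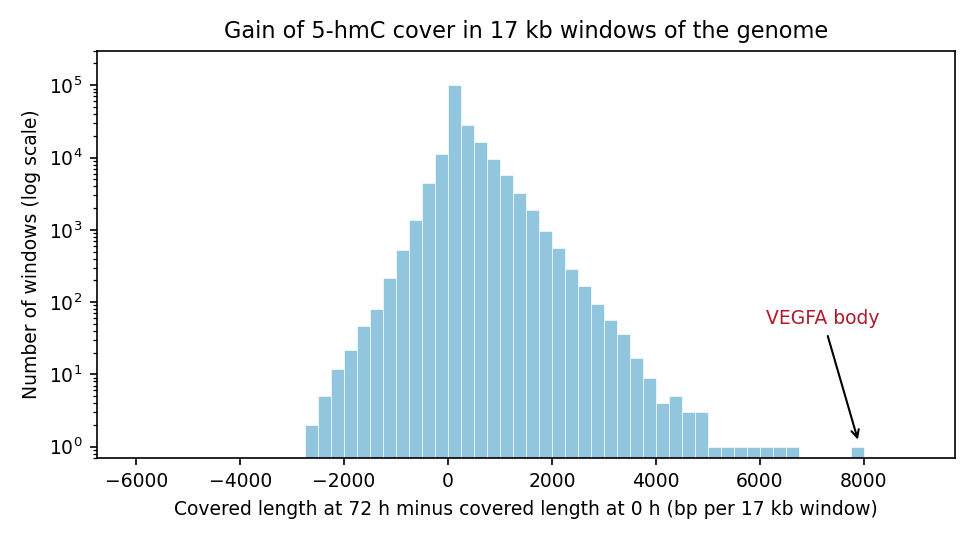
Number of 17 kb windows (vertical log axis) by covered length at 72 h minus covered length at 0 h in bp (horizontal axis, bars of 250 bp), over 183884 windows tiled from the edge of the VEGFA body. The window that is the VEGFA body stands at 7908 bp, apart from the next at 6740 bp.

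Step by step, the gene added 1692 bp between 0 and 6 h, 1616 bp between 6 and 12 h, 2554 bp between 12 and 24 h and 3279 bp between 24 and 48 h. At 72 h it covered 1233 bp less than at 48 h. The ratio of neighbouring lists was at least as high as that of the gene in 3.64% of 17 kb windows for the first step, 4.28% for the second, 6.31% for the third and 9.09% for the fourth, and at most as low in 18.6% for the last. The difference between 48 h and 0 h is thus the sum of 4 steps in 1 direction, while no single step had the most extreme ratio among the windows. After the first step, the steps in bp were not ranked.

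Base by base, most of the body's new cover was kept once it appeared. Of the 12652 bp covered in any list, 9152 bp were uncovered at 0 h, and 79.9% of these appeared at some hypoxic time and were then covered in every later list. In both flanks this share of the new bases was 45.7%, and in the genome 41.6%. A base first covered at 72 h counts as kept, since no list follows, and without such bases the shares were 79.9% in the body, 36.9% in the flanks and 28.8% in the genome. The places also differed at the start, as 27.7% of the covered bases of the body were already covered at 0 h, beside 64.5% in the flanks and 58.8% in the genome. The new bases that stayed entered the body at 6 h (1263 bp), 12 h (2178 bp), 24 h (1967 bp) and 48 h (1900 bp), and only 6 bp were first covered at 72 h. These made up 0.0656% of the new bases of the body, where the share for 72 h was 18.0% in the genome. All 3500 bp of the body covered at 0 h were covered again at 72 h. For both flanks this share was 91.9%, and for the genome 87.2%.

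**Figure D4:**
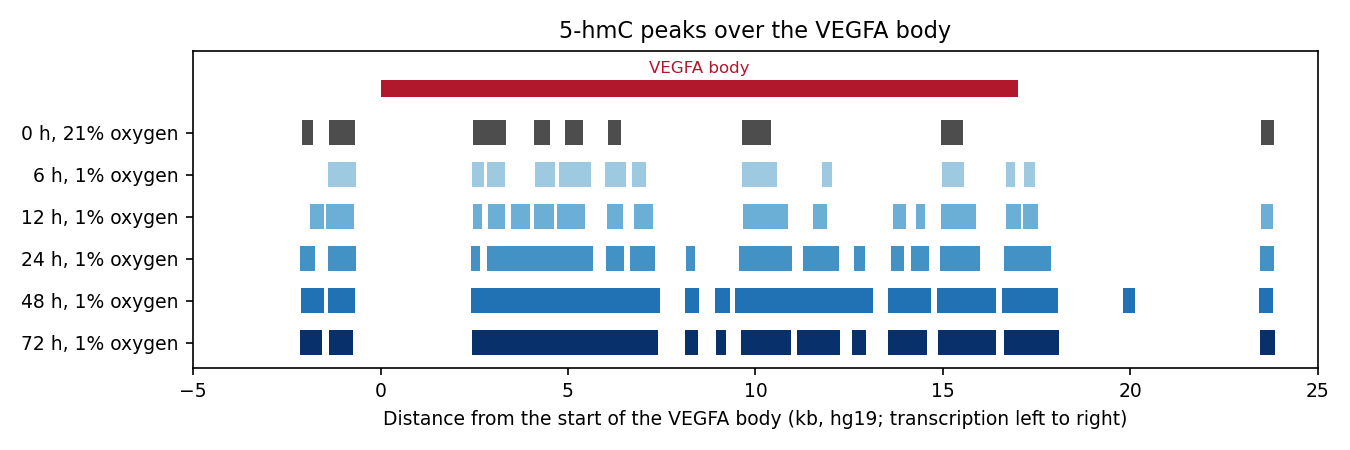
Peaks of each list (1 row per library, boxes to scale) from 5 kb upstream to 25 kb downstream of the start of the VEGFA body, in kb. The stretch at the start of the gene is empty in all rows, and the boxes inside the gene widen over time, with 1 box per region at 48 h.

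The promoter zone differed from 0 h by 0.84 to 1.34 times, a range that includes the genome-wide ratios. Upstream of the start lay a region from 43736548 to 43737343 that every list held, with 690 bp at 0 h, 748 bp at 6 h, 741 bp at 12 h, 734 bp at 24 h, 709 bp at 48 h and 634 bp at 72 h. Its start moved over 78 bp and its end over 84 bp among the 6 lists, and 634 bp were common to all of them. Its 72 h cover was the lowest of the 6.

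A second promoter region, from 43735849 to 43736484, covered 285 bp (0 h), 376 bp (12 h), 397 bp (24 h), 595 bp (48 h) and 590 bp (72 h), and was absent at 6 h. No list had a peak in the 3073 bp from 43737344 to 43740416, which span the start of the body. Gaps of this length or longer are common, at 37.8% of the gaps between regions of the genome. Over the promoter zone, defined as 2 kb on both sides of the body start, covered length was between 748 bp (6 h) and 1193 bp (48 h), and 889 bp at 0 h.

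Inside the gene, the first and broadest region ran from 43740417 to 43745463, beginning 2.4 kb after the body start. It covered 2128 bp at 0 h, 3141 bp at 6 h, 3430 bp at 12 h, 4210 bp at 24 h, 5042 bp at 48 h and 4963 bp at 72 h. At 0 h it consisted of 4 separate peaks, at 6 h of 6, at 12 h of 7 and at 24 h of 4, and at 48 and 72 h of 1 peak each. These single peaks of 5042 and 4963 bp were the widest of the window in their lists, while at 0 h the widest peak inside the gene measured 861 bp. The ratio of 72 h to 0 h was 2.33.

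A second broad region, from 43747468 to 43751143 in the middle of the gene, covered 777 bp at 0 h, 1224 bp at 6 h, 1576 bp at 12 h, 2676 bp at 24 h, 3676 bp at 48 h and 2845 bp at 72 h. It was a single peak at 0 h and at 48 h, and 3 peaks at 24 and at 72 h. The difference between 72 and 48 h in this region was 831 bp, of 1233 bp less in the whole body.

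Between and behind these lay 3 regions without a counterpart in normoxia, which entered at different times. The one from 43751529 to 43752687 was absent at 0 and 6 h and covered 557 bp at 12 h, 809 bp at 24 h, 1153 bp at 48 h and 1046 bp at 72 h. A small one from 43746112 to 43746488 began at 24 h with 244 bp and covered 377 bp (48 h) and 351 bp (72 h). The last, from 43746925 to 43747321, was seen at 48 h with 397 bp and at 72 h with 283 bp. Once present, each was found in every later list.

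At the 3′ end, a region from 43752839 to 43754422 covered 595 bp at 0 h, 581 bp at 6 h, 941 bp at 12 h, 1065 bp at 24 h, 1584 bp at 48 h and 1552 bp at 72 h. Its 6 h value was no higher than that of 0 h, and all later values were. The ratio of 72 h to 0 h was 2.61.

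Directly behind it, from 43754589 to 43756106, lay the region for which the locus was chosen. It was absent at 0 h and covered 516 bp at 6 h, 771 bp at 12 h, 1252 bp at 24 h, 1473 bp at 48 h and 1474 bp at 72 h. At 6 and 12 h it was 2 narrow peaks, of 246 and 270 bp and of 377 and 394 bp, and from 24 h on 1 wide peak. With only peaks of at least 500 bp kept, it was absent at 6 and 12 h as well. It crosses the body end at 43.755 Mb, with 412 bp before it and 1106 bp after it, and since that edge is given to the nearest kb, the gene's true end was not placed against it. The nearest normoxia peaks were 1049 bp upstream and 5378 bp downstream, so at 0 h the place was part of a longer stretch without peaks. Over all lists, however, only 166 bp separate this region from the one before it. Merging over 300 bp therefore makes it part of a region held at 0 h.

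Absence at 0 h with presence at all 5 hypoxic times was shown by 7 of the 124 regions, beside 2.99% of all regions of the genome. The region at the 3′ end is 1 of the 7, as it was chosen to be. Most like it among the 12439 regions of this kind, by log2 covered length over the 5 hypoxic times, was a region on chromosome 5 from 82473017 to 82474519 (Euclidean distance 0.46), with 585 bp at 6 h and 1289 bp at 72 h. Next came one on chromosome 20 from 57486338 to 57487663 (0.67), with 492 and 1232 bp at these times, and one on chromosome 5 from 150458314 to 150459784 (0.75), with 697 and 1457 bp.

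**Figure D5:**
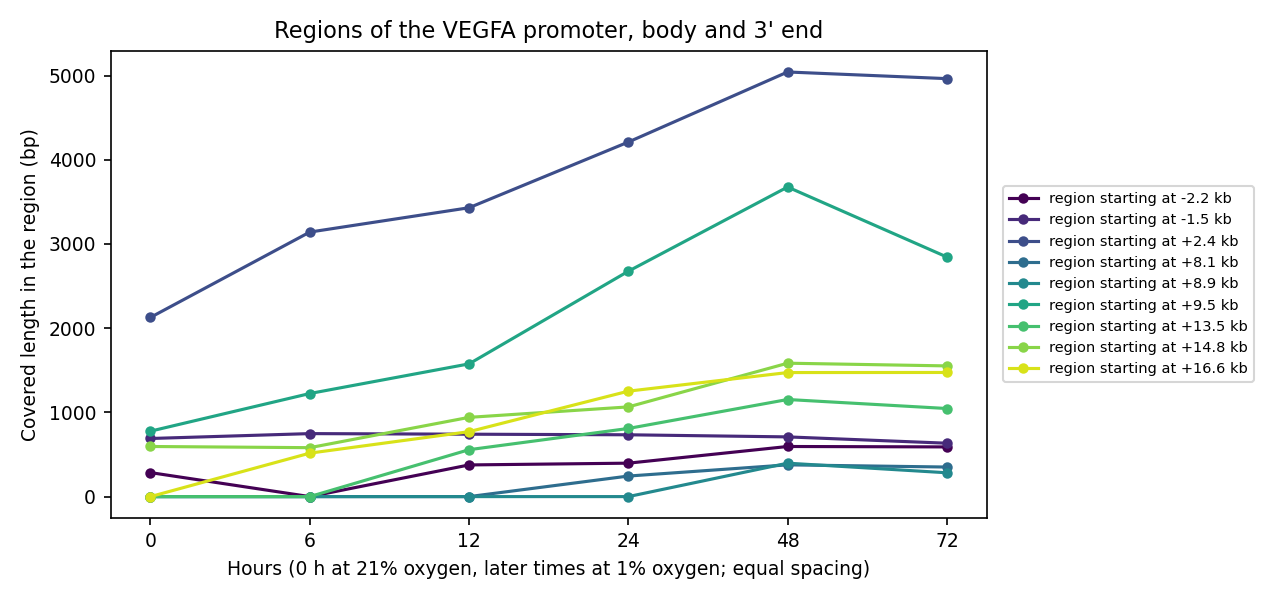
Covered length in bp (vertical axis) of the 9 regions of the VEGFA promoter, body and 3′ end against hours (horizontal axis, equally spaced), named by the start of each region in kb from the body start; each point is 1 library. The region at -1.5 kb stays between 634 and 748 bp, and the region at +2.4 kb reaches 5042 bp at 48 h.

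The outer edges of the 4 regions of the gene with the greatest joined span differed between times mainly on the downstream side. That span includes the end shifts themselves, and a link to transcription was not tested. In the broad region at 2.4 kb, the outer start moved over 57 bp among the 6 lists, and the outer end lay 991 bp farther downstream at 72 h than at 0 h. For the mid-gene region the start moved over 194 bp, and the end lay 2551 bp farther. For the region from 43752839 the start moved over 137 bp, and the end lay 878 bp farther. The region over the body end had its first peak at 6 h, and from then to 72 h its end moved downstream by 659 bp and its start upstream by 50 bp. The values of the first 2 regions depend on how peaks were joined, since their new downstream parts began as separate peaks. The 3 narrower regions absent in normoxia showed no downstream shift of that size. From first to last list, the one from 43751529 moved outward by 154 bp at its start and 59 bp at its end, so more upstream than downstream. The one from 43746112 moved outward by 29 and 78 bp, and the one from 43746925 had shifts of -13 and -101 bp.

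Outer edges that lay farther out on 1 side were also seen elsewhere, in a count added after seeing the data. A region counted as one-sided when 1 outer edge lay at least 300 bp farther out at 72 h than at 0 h and the other under 100 bp farther out. The other edge could also lie farther in, so a region that was displaced without growing counts too. An example is the flank region from 43836578 to 43837972, with outward shifts of -322 bp at its start and 368 bp at its end. Its cover ratio of 72 h to 0 h was 1.04. Of the 5 regions of the promoter, body and 3′ end held at both times, 3 were one-sided, all of them downstream. Of the 74 in the flanks, 5 were one-sided downstream and 2 upstream. In the genome 5.39% of 233960 regions were one-sided, 6310 toward higher coordinates and 6300 toward lower ones, and they made up 81.4% of the regions with any edge that far out. Most regions with an edge that far out were thus one-sided in this sense, which does not separate growth from displacement. The genome's regions are not sorted by the strand of a gene, so their 2 directions cannot be set against the gene's.

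In the downstream flank, the 3 widest regions by mean cover over the 6 lists changed little between 0 and 72 h, and the fourth grew. The widest, the region from 43905919 to 43909445, with its midpoint 152681 bp behind the body end, covered 3228 bp (0 h), 3295 bp (6 h), 3364 bp (12 h), 3164 bp (24 h), 3527 bp (48 h) and 3304 bp (72 h). The next widest, from 43889699 to 43893193, covered 2759 bp at 72 h, against 3031 bp at 0 h, and the third, from 43845342 to 43847877, covered 2363 bp at 72 h, against 2365 bp at 0 h. Their ratios were 1.02, 0.91 and 1.00. The fourth by mean cover, from 43858018 to 43861679, had the greatest span of the flank once its lists were joined, 3662 bp. It covered 1663 bp (0 h), 2139 bp (6 h), 1862 bp (12 h), 2204 bp (24 h), 3051 bp (48 h) and 3152 bp (72 h), a ratio of 1.90. Its outer end lay 1665 bp farther downstream at 72 h than at 0 h, and its start differed by 29 bp. Among the gene's regions, only the mid-gene one had a greater downstream shift of its end.

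Upstream, the widest by mean cover was the region from 43681420 to 43683037, with 1403 bp at 72 h, against 1327 bp at 0 h. The region from 43669997 to 43671474 covered 1339 bp at 72 h, against 1326 bp at 0 h, and the one from 43685332 to 43686757 covered 1307 bp at 72 h, against 1013 bp at 0 h. In bins of 10 kb, the stretch from 152 to 172 kb after the body start was the densest at 0 h, with 6059 and 6496 bp covered per bin, and had 6126 and 6881 bp at 72 h. The 2 bins from 2 to 22 kb, which hold most of the gene, had 7827 and 4687 bp at 72 h, against 2905 and 595 bp at 0 h. The second of these had the highest ratio of the 29 bins with cover at 0 h, at 7.88, followed by 2.69 in the first and in 1 bin of the downstream flank.

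A further 6 regions of the flanks were absent at 0 h and present at all hypoxic times, and each covered less than the region at the 3′ end at every hypoxic time. The median cover at 72 h of all regions of this kind in the genome was 380 bp. The one upstream, from 43727122 to 43727753, lay 10.9 kb before the gene with the nearest 0 h peak 8161 bp away, and covered 348 bp (6 h), 386 bp (12 h), 391 bp (24 h), 632 bp (48 h) and 431 bp (72 h). The 5 downstream, which begin at 43783400, 43789063, 43827927, 43880829 and 43945291, covered 458, 419, 496, 350 and 294 bp at 72 h. For comparison, 4 regions of the window were missing at 6 h alone (3.23%, beside 1.71% in the genome). At 12 h alone 2 were missing (1.61%, beside 1.67%), and at 72 h alone 1 (0.806%, beside 0.985%). At 24 h alone and at 48 h alone 0 were missing, beside 0.965% and 0.642% in the genome. Drop-out from a single list is thus also seen here for some other times.

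Present at 0 h and absent at 72 h were 6 regions, all of them in the downstream flank. They make up 4.84% of the window's regions, beside 6.41% in the genome. Of these, 2 were in normoxia alone, from 43818994 to 43819219 and from 43827151 to 43827376, with 226 bp each, which is the narrowest width of that list. One from 43902757 to 43903114 covered 296 bp (0 h) and 356 bp (6 h) and was gone later. The others began at 43832536, 43842963 and 43916619 and covered 363, 257 and 267 bp at 0 h. No region of the promoter, body or 3′ end was among them.

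Over the window, 69 of 124 regions were present in all 6 lists, beside 46.8% of the genome's regions, and 18 were in a single list. Of these 18, 16 were in 1 hypoxia list (12.9% of the window's regions, beside 16% in the genome) and 2 in normoxia (1.61%, beside 1.84%). Of the 9 regions in the promoter, body and 3′ end, 4 were in all lists and 4 were absent at 0 h and present at 72 h. Of the 115 in the flanks, these numbers were 65 and 20. Absent at 0 h and present at 72 h were thus 19.4% of the window's regions, below the 24.3% of the genome. Among 79 regions held at both times, 22 covered at least 1.5 times as much at 72 h as at 0 h, beside 16.4% in the genome, and 2 at least 1.5 times less, beside 2.52%. Of the 22, 4 were among the 5 regions of the promoter, body and 3′ end, and 18 among the 74 of the flanks. The flanks' share was thus 24.3%, also above the 16.4% of the genome.

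At the edges of the window, the first region inside lay with its peak midpoints 694 to 761 bp past the start and covered 903 bp at 72 h, against 697 bp at 0 h. The nearest peak outside belonged to the 72 h list, with its midpoint 346 bp before the start. At the other edge, the nearest peak outside belonged to the 48 h list, 788 bp past the end. By the RefSeq annotation of GRCh38.p14, used for the order of genes alone, the protein-coding neighbours of VEGFA are MRPS18A, a mitochondrial ribosomal protein gene, on the upstream side and MRPL14, another such gene, downstream. Exons, introns and untranslated parts of VEGFA were not placed on the regions, because no annotation of hg19 was used here.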

How the data were processed

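Per the labels' protocols, genomic DNA was sheared to 300 bp, 5-hmC was tagged with an azide-glucose and biotin, and tagged fragments were captured for sequencing. The deposited lists have 3 columns (chromosome, start, end) and no score. Per the submitters' processing notes, the tools included BWA 0.7.17, MACS2 and HTSeq, with hg19 as the build. The peak threshold, and whether the input served in calling, is not stated. Narrowest peaks ranged from 226 to 242 bp between lists.

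Peaks overlapping by at least 1 bp were merged into regions. Covered length is the sum of peak lengths, clipped for zones. The promoter and 3′ end zones reach 2 kb to both sides of the body's edges. All regions of the promoter, body and 3′ end, those gained at all hypoxic times, those lost by 72 h and the 3 widest of each flank by mean covered length over the 6 lists are named. One more flank region was added after its values were seen. Window, lists and rules were chosen with earlier results of these data known. VEGF ligand and receptor genes (VEGFB, VEGFC, VEGFD, PGF, FLT1, KDR, FLT4, NRP1, NRP2) were planned and not run, because that needs gene positions in hg19. The computations were checked on simulated lists, where 8 of 8 quantities came back exactly. Python 3.11.15, NumPy 2.4.6 and Matplotlib 3.10.9 were used.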

Additional observations from a re-analysis of the deposited data

How the results depend on the processing

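Of 35 alternatives fixed beforehand, 21 kept counts within 1.5 times and ratios within 1.1 times of the reported value, and 0 turned a ratio round. With only peaks of at least 500 bp, the window held 66 regions, 2 absent at 0 h alone, 40 in all lists and 11 that covered at least 1.5 times as much at 72 h, and the ratio of 72 h to 0 h was 4.66 in the body and 1.57 in the window. Divided by the list totals, these ratios were 2.49 and 1.08, and with 6 h as the reference 2.20 and 1.27, with 13 wider regions. A fold of 2 left 8 wider regions. Merging over 300 bp left 4 regions absent at 0 h alone. The region for which the locus was chosen was not among these, since it joined the region 166 bp before it, which was held at 0 h. Without that merging, 4 regions were absent at 6 h alone. Equal numbers of peaks per list, widest first, gave 3.18 for the body. Sliding windows, added after seeing the data, found 1 other place with the gain of the body. Causes were not tested. No paired analysis was possible because each time has 1 library. Depth is unknown, so how far it sets peak width and number has no value here.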
